A study of Homo sapiens with 36 samples.

Results

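The voltage-gated sodium and calcium channel genes were chosen by symbol from the count table of the series: SCN followed by a number and A or B for the sodium channels, and CACNA1A to CACNA1I, CACNA2D1 to CACNA2D4, CACNB1 to CACNB4 and CACNG1 to CACNG8 for the calcium channels. Of 28516 gene symbols in the table, 39 met this rule, 14 for sodium and 25 for calcium channels. The choice used names and no measured value. With at least 10 reads summed over all 36 libraries, 33 of the 39 could be tested among 19689 tested genes.

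A voltage-gated sodium channel consists of a pore-forming alpha subunit (SCN symbols that end in A) and auxiliary beta subunits (SCN symbols that end in B), and it carries the fast upstroke of the action potential. A voltage-gated calcium channel has an alpha1 pore of the high-voltage-activated or of the low-voltage-activated T-type, and the high-voltage-activated pores assemble with beta and alpha2delta subunits that bring them to the membrane. Gabapentinoids, drugs used in restless legs syndrome (RLS), bind the alpha2delta proteins, and several CACNG proteins serve AMPA-type glutamate receptors as TARPs, auxiliary subunits that are not confined to calcium channels.

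The study asked which genes respond to the transcription factors MEIS1 and MEIS2, which lie at RLS risk loci, in cultured human neural stem cells (hNSC) from a supplier. RNA-seq was done on 6 libraries of each of 6 conditions, all taken 48 h after lentiviral transduction. CRISPR-activation was used for MEIS1-OE and MEIS2-OE, with 3 viruses that carry a guide RNA to the gene, a Cas9 that does not cut fused to VP64, and the MPH activator. The ctrl-OE cells received the same system with a non-targeting guide. In MEIS1-KO and MEIS2-KO, the lentiCRISPRv2 virus brought cutting Cas9 with a mixture of guides against the gene, and ctrl-KO received it with a non-targeting guide. Selection of transduced cells or of a clone is not given in the sources used here, so each library may mix edited and unedited cells. All hNSC came from the same purchased line, and where no label ties libraries to separate cultures, the p-values measure only the spread between these libraries, which may be technical.

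Reads counted on genes numbered between 15429985 and 22940493 per library, with a median of 20324720. The targeted genes followed the labels: MEIS1 was at 310 ± 14.3 CPM (the read count scaled to library size; SD, n = 6) in MEIS1-OE and 17.8 ± 1.10 in ctrl-OE, and at 8.96 ± 1.74 in MEIS1-KO and 25.7 ± 1.66 in ctrl-KO. MEIS2 was at 824 ± 20.04 CPM in MEIS2-OE and 22.6 ± 1.23 in ctrl-OE, and at 12.1 ± 0.936 in MEIS2-KO and 25.8 ± 1.58 in ctrl-KO. The neural stem cell markers fixed for the check (among them NES, SOX2, PAX6 and VIM) were read in every condition and summed to between 2940 and 6067 CPM per library. In bulk RNA, fewer cells of a type and less RNA per cell cannot be told apart.

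The channel genes spanned a wide range of levels in hNSC, and the highest per kb of exon were genes of auxiliary subunits. A mean of 1 CPM or more over all libraries was reached by 18 of the 39 genes, 8 of them pores (6 of the sodium channel and 2 of the T-type), and 21 lay under it. Per kb of exon, the highest level among all 39 was that of CACNG7, a TARP gene, at 30.3 CPM per kb, followed by CACNG4 at 10.5, CACNG8 at 9.68 and CACNB3, which encodes a beta subunit, at 9.56 CPM per kb. The length used decides the order of the last of these: with the length of the canonical transcript in place of all exons together, a choice made after seeing the data, CACNB3 stood at 23.3 CPM per kb and CACNG4 at 10.5. On either length these 4 genes stood ahead of every pore gene.

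Among the sodium channel pores, SCN8A, known from the axon initial segment, led with 3.22 CPM per kb of exon. It was followed by SCN3A, a fetal brain form, at 1.18, SCN1A at 0.663, SCN2A at 0.441, SCN7A at 0.233 and SCN9A at 0.212 CPM per kb. SCN11A stood at 0.0530 and the skeletal muscle gene SCN4A at 0.0254 CPM per kb, and SCN10A had 0 reads in 727043861 reads of all libraries, which allows a level of up to 0.00413 CPM. The beta subunit genes were low, with SCN4B at 0.163 and SCN3B at 0.133 CPM per kb. SCN2B had 5 reads in all.

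All 6 high-voltage-activated calcium channel pore genes lay under a mean of 1 CPM. CACNA1B, the N-type pore of presynaptic terminals, was the highest of them at 0.0894 CPM per kb of exon, and the other 5 lay between 0.00196 and 0.0163 CPM per kb. Exonic sequence of CACNA1D overlaps the spans of DCP1A and CHDH on the opposite strand, and that of CACNA1C the span of DCP1B. The strand setting of the counting is not given in the sources used here, so any reads of the partners there cannot be told apart. The T-type pore CACNA1H stood at 2.18 CPM per kb, CACNA1G at 0.169 and CACNA1I at 0.00641. Of the alpha2delta genes, CACNA2D1 was at 1.03 CPM per kb and CACNA2D2 at 0.402, and CACNA2D3 and CACNA2D4 lay at 0.0487 and 0.0361. CACNG6 stood at 1.28 CPM per kb and the muscle gene CACNG1 at 0.0372, whereas CACNG2 and CACNG3 had 0 reads, CACNG5 had 3 and CACNB2 had 6.

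**Figure D1:**
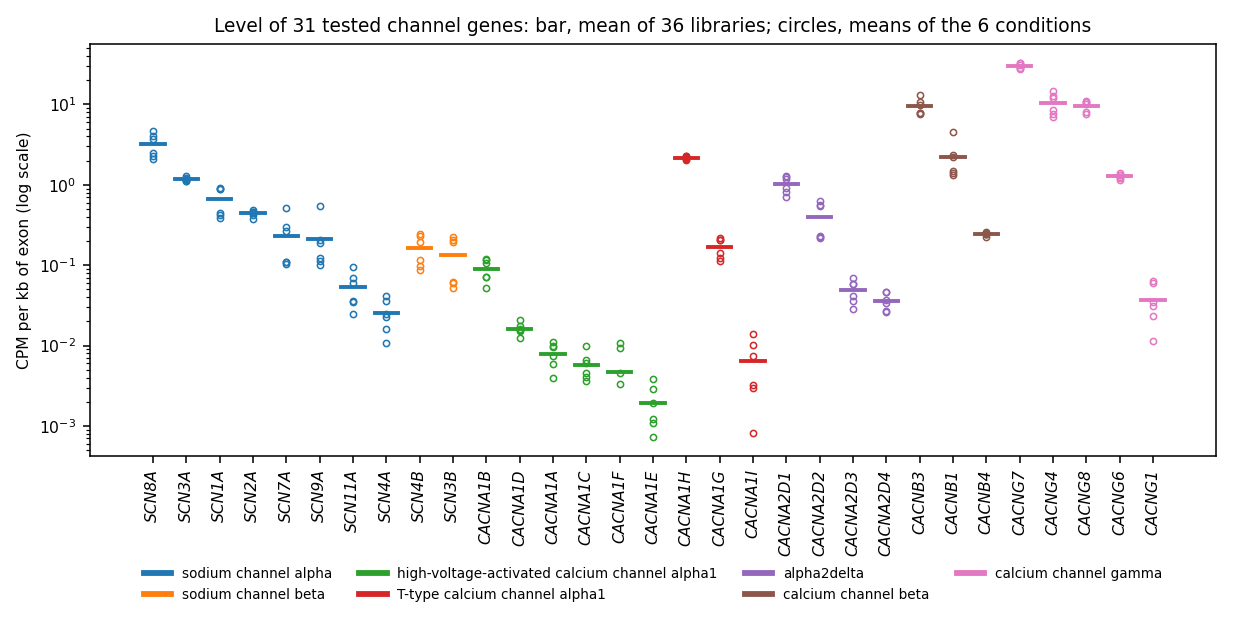
CPM per kb of exon (log axis) of 31 of the 33 tested channel genes, grouped by subunit class; horizontal bars are means over 36 libraries and circles are the means of the 6 conditions, with condition means of 0 not drawn. The CACNG genes CACNG7, CACNG4 and CACNG8 and the beta gene CACNB3 sit at the top, at 9.56 to 30.3 CPM per kb, and the high-voltage-activated pores sit under 0.1.

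MEIS1-OE raised a small set of these genes. The sodium channel pores SCN9A and SCN7A and the calcium channel beta gene CACNB1 rose past the fold threshold, which was an absolute log2(fold change) above 0.58 with an adjusted p under 0.05. These 3 of 33 tested channel genes compare with 2.84% of all tested genes called in either direction, and with 2.24% called higher. At an adjusted p under 0.05 without the fold threshold, 8 of the 33 passed (5 higher and 3 lower), beside 9.1% of all tested genes, 5.52% higher and 3.58% lower. The median log2(fold change) was 0.0083 over the 33 and -0.0013 over all tested genes.

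SCN9A encodes the sodium channel pore known for pain sensing in peripheral neurons. It ranged from 2.14 to 2.95 CPM in ctrl-OE, with a median of 2.69, and from 6.05 to 9.46 CPM in MEIS1-OE, with a median of 7.27. Every MEIS1-OE library lay above every library of the other 5 conditions. The log2(fold change) over ctrl-OE was 1.51 with a standard error (SE) of 0.13 (edgeR adjusted p = 9.9e-12), and in reads the libraries held 53 to 63 in ctrl-OE and 122 to 188 in MEIS1-OE. In MEIS2-OE the level ranged from 2.28 to 3.80 CPM with a median of 2.89, which overlaps ctrl-OE. In the knockout series it lay lower, at 1.06 to 1.84 CPM in ctrl-KO, 1.15 to 2.05 in MEIS1-KO and 1.21 to 1.92 in MEIS2-KO.

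SCN7A encodes an atypical member of the sodium channel family that senses extracellular sodium. It ranged from 1.82 to 3.44 CPM in ctrl-OE, with a median of 2.75, and from 3.22 to 7.20 CPM in MEIS1-OE, with a median of 4.85. In 5 of 6 MEIS1-OE libraries it exceeded all ctrl-OE libraries, and the lowest lay within their range. The log2(fold change) was 0.94 with an SE of 0.16 (edgeR adjusted p = 6.8e-05). MEIS2-OE lay at 2.38 to 3.16 CPM with a median of 2.97, inside the range of ctrl-OE. In ctrl-KO the range was 0.720 to 1.41 CPM, in MEIS1-KO 0.787 to 1.18 and in MEIS2-KO 0.353 to 1.48.

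SCN9A and SCN7A are neighbours in the sodium channel cluster of chromosome 2 and are transcribed on the minus strand (GRCh37, SCN9A at chr2:167051695-167232511 and SCN7A at chr2:167260083-167467992). The cluster continues with SCN1A at chr2:166841151-167005724, SCN2A at chr2:166051503-166248820 and SCN3A at chr2:165944036-166060560. None of those 3 passed in MEIS1-OE: the log2(fold change) was -0.23 for SCN1A (SE 0.10), 0.08 for SCN2A (SE 0.08) and 0.15 for SCN3A (SE 0.10). The genes between SCN2A and SCN1A did not pass either, with TTC21B at 65.3 ± 4.17 CPM in ctrl-OE and 58.6 ± 3.62 in MEIS1-OE, and CSRNP3 at 34.9 ± 1.45 and 31.3 ± 5.13. Annotated SCN2A and SCN3A overlap by 9058 bases on opposite strands, so some reads of these 2 genes cannot be assigned without strand. The annotated noncoding gene SCN1A-AS1, which is not among the counted genes, spans all of SCN9A and SCN1A on the opposite strand. Any reads of it on their exons could not be told apart without strand either.

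**Figure D2:**
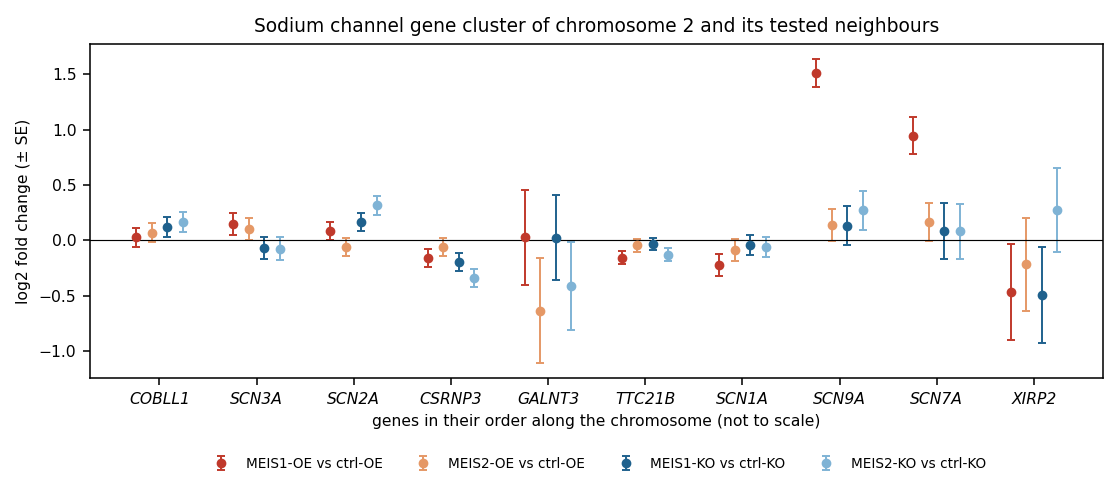
log2(fold change) with SE of the tested genes of the chromosome 2 sodium channel cluster and its neighbours, in chromosomal order (not to scale), for each MEIS condition against its control. In MEIS1-OE, SCN9A at 1.51 and SCN7A at 0.94 stand above the rest, whose values lie at 0.15 or below.

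CACNB1 encodes the beta subunit of the skeletal muscle calcium channel and is also expressed in brain (GRCh37, chr17:37329706-37353955, minus strand). It ranged from 14.6 to 18.8 CPM in ctrl-OE, with a median of 16.2, and from 24.6 to 37.2 CPM in MEIS1-OE, with a median of 32.7. The lowest MEIS1-OE library lay above all libraries of the other 5 conditions. The log2(fold change) was 0.96 with an SE of 0.09 (edgeR adjusted p = 2.9e-10), on 312 to 465 reads per library in ctrl-OE. MEIS2-OE lay at 13.3 to 17.3 CPM with a median of 16.3, and ctrl-KO, MEIS1-KO and MEIS2-KO lay at 8.69 to 11.9, 7.50 to 10.5 and 9.36 to 12.3 CPM. Of 8 muscle markers, MYOG had 0 reads in MEIS1-OE, the sum of all 8 was 2.37 to 4.12 CPM in MEIS1-OE and 2.91 to 4.50 CPM in ctrl-OE, and none of the 6 tested passed. An annotated noncoding gene, not among the counted genes, overlaps CACNB1 by 4051 bases on the opposite strand. Any reads of that gene on CACNB1 exons could not be told apart without strand.

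CACNB3, the beta subunit gene with the most reads, moved the same way by less. It lay at 63.8 to 79.0 CPM in ctrl-OE (median 72.2) and at 81.5 to 103 CPM in MEIS1-OE (median 96.7). The groups did not overlap, and the log2(fold change) of 0.42 (SE 0.06, edgeR adjusted p = 3.2e-06) stayed under the fold threshold. CACNB3 lay at 68.8 to 80.2 CPM in MEIS2-OE (median 78.2), and at 51.6 to 62.5 in ctrl-KO, 50.5 to 64.9 in MEIS1-KO and 52.8 to 60.3 in MEIS2-KO. CACNB4 did not pass, at a log2(fold change) of -0.09 (SE 0.12). Summed over all CACNB genes, the level was 96.9 ± 5.55 CPM in ctrl-OE and 136 ± 10.4 in MEIS1-OE (SD, n = 6).

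The CACNG genes went in both directions in MEIS1-OE. CACNG8 lay at 66.5 to 73.8 CPM in ctrl-OE (median 71.2) and at 87.2 to 92.3 CPM in MEIS1-OE (median 89.9), without overlap, with a log2(fold change) of 0.35 (SE 0.04, edgeR adjusted p = 1.1e-07). It lay at 63.1 to 70.2 CPM in MEIS2-OE and at 90.0 to 103 in ctrl-KO, 92.8 to 107 in MEIS1-KO and 88.3 to 104 in MEIS2-KO, so the MEIS1-OE libraries overlapped those of ctrl-KO. CACNG4 lay at 24.1 to 41.7 CPM in ctrl-OE (median 28.8) and at 22.3 to 28.9 in MEIS1-OE (median 25.3), with a log2(fold change) of -0.27 (SE 0.08, edgeR adjusted p = 0.032). These groups overlapped, and 3 of 6 MEIS1-OE libraries lay below all ctrl-OE libraries. CACNG7 lies beside CACNG8 on chromosome 19 (GRCh37, chr19:54412532-54447204 and chr19:54466191-54493469), and it did not pass, with 61.6 to 91.3 CPM in MEIS1-OE (median 85.4), 65.6 to 113 CPM in ctrl-OE (median 80.5) and a log2(fold change) of -0.0088 (SE 0.10). CACNG6, the next gene on that chromosome, had a log2(fold change) of -0.14 (SE 0.13) and did not pass.

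CACNA2D1, a target of gabapentinoids, and SCN8A fell in MEIS1-OE at an adjusted p under 0.05, both within the fold threshold. CACNA2D1 lay at 7.76 to 9.25 CPM in ctrl-OE (median 8.42) and at 5.46 to 7.85 in MEIS1-OE (median 6.50), with a log2(fold change) of -0.35 (SE 0.09, edgeR adjusted p = 0.0080). SCN8A lay at 26.9 to 35.8 CPM in ctrl-OE (median 29.9) and at 23.8 to 32.1 in MEIS1-OE (median 24.2), with a log2(fold change) of -0.26 (SE 0.08, edgeR adjusted p = 0.033). In each gene 5 of 6 MEIS1-OE libraries lay below all ctrl-OE libraries. CACNA2D1 lay at 6.35 to 8.82 CPM in MEIS2-OE (median 7.67), and at 9.74 to 12.8 in ctrl-KO, 10.1 to 13.6 in MEIS1-KO and 9.98 to 12.7 in MEIS2-KO. The second gabapentinoid target, CACNA2D2, did not pass, with a log2(fold change) of -0.16 (SE 0.11).

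**Figure D3:**
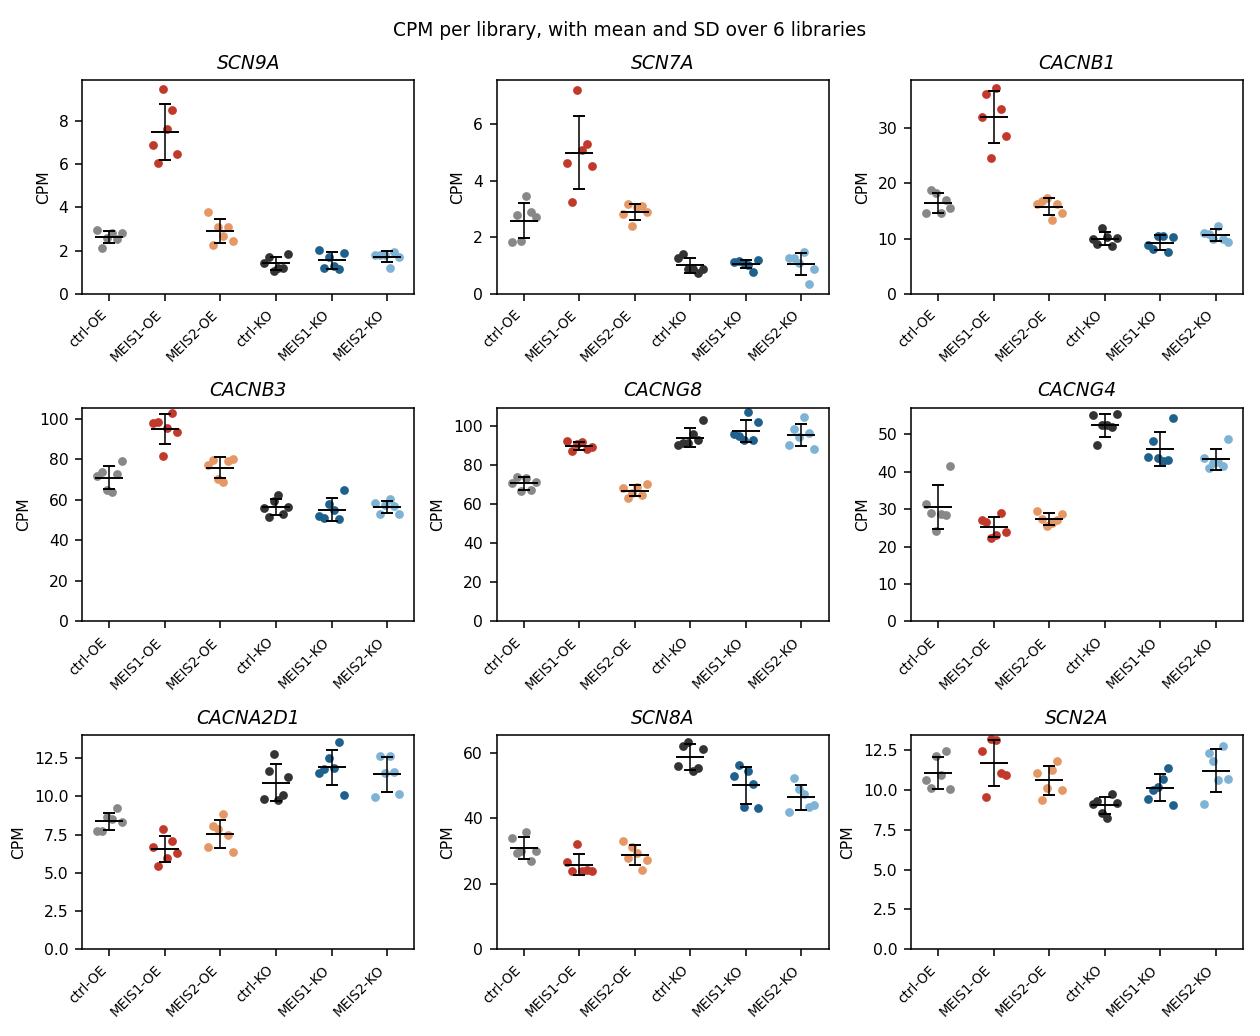
CPM of 9 channel genes in each of the 36 libraries by condition, each axis starting at 0; points are libraries, and the horizontal line and bars give the mean and SD over 6 libraries. SCN9A at 6.05 to 9.46 CPM and CACNB1 at 24.6 to 37.2 CPM are higher in MEIS1-OE than in all other libraries, and SCN8A is lower in all libraries of the 3 CRISPR-activation conditions than in those of the 3 knockout conditions.

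Promoter sequence is shown for the genes that rose most, since MEIS proteins bind DNA. The core hexamer of the MEIS motif is TGACAG, with CTGTCA as its reverse complement, and it was searched on both strands in RefSeq promoter windows of 300 bases (250 before to 50 after a start site, matched to GRCh37). Windows were found for 25 of the 39 genes. Of these genes' 39 windows, 7 held the hexamer (17.9%), beside 5533 of 35116 windows of all genes (15.8%). The window of SCN9A and that of CACNB1 held none, a window of SCN7A held it 145 bases before the start site and a window of CACNB3 108 bases before it. Windows of SCN2A, SCN10A, CACNB2 and CACNA1I also held it, and none of these genes was called in MEIS1-OE over ctrl-OE. The 250 bases before the start sites are given 5′ to 3′ on the strand of the gene, with the hexamer in capitals where it occurs: SCN9A at chr2:167232455-167232704 (minus strand), the upstream SCN7A window at chr2:167350760-167351009 (minus strand), CACNB1 at chr17:37353923-37354172 (minus strand) and CACNB3 at chr12:49209107-49209356 (plus strand).
SCN9A: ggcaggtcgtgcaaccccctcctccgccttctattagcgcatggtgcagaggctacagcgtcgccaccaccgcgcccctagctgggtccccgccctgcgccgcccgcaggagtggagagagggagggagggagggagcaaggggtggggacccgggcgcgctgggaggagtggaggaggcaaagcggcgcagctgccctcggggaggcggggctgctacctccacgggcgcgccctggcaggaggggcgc
SCN7A: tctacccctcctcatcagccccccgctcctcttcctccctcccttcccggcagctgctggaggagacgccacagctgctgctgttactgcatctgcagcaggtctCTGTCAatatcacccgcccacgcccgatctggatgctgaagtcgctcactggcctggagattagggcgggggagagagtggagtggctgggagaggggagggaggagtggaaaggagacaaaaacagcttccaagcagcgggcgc
CACNB1: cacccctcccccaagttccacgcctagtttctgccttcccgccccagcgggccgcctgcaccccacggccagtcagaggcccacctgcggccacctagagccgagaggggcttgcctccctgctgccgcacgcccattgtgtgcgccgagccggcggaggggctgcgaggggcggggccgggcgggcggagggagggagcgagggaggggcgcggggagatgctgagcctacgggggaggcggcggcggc
CACNB3: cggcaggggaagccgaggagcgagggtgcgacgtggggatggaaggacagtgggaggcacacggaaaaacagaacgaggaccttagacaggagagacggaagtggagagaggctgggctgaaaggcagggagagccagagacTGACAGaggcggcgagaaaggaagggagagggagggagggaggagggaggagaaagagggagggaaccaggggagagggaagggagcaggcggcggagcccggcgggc
These letters are rich in G and C. The whole windows held 73.3% G and C for SCN9A, 74.7% for CACNB1, 62.7% for SCN7A and 67.3% for CACNB3, beside a median of 58.7% over all windows. A further SCN7A window had 41.3% and no hexamer, and further CACNB3 windows had 66.7% and 70.0% and no hexamer. Within 1000 bases of the annotated start sites of the 39 genes, the activation guide for MEIS1 matched next to an NGG PAM over at most 9 consecutive bases counted from the PAM, as in CACNA2D1, and over 5 in SCN9A, 4 in SCN7A and 7 in CACNB1.

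The MEIS1 contrast, the effect of MEIS1-OE minus the effect of MEIS1-KO, asked whether these 2 effects differed, each taken against its own control. CACNB1 with a log2 difference of 1.06 (SE 0.14, edgeR adjusted p = 1.2e-06) and SCN9A with 1.38 (SE 0.22, edgeR adjusted p = 5.6e-05) passed both thresholds, which is 2 of 33 beside 1.41% of all tested genes and 1.08% called higher. At the adjusted p alone 5 passed, beside 3.48% (2.35% higher and 1.14% lower): CACNB3 (0.46, SE 0.09) and CACNG8 (0.30, SE 0.06) were added as higher and CACNA2D1 (-0.48, SE 0.13) as lower. SCN7A had a difference of 0.86 (SE 0.30, edgeR adjusted p = 0.13) and did not pass. Knockout of MEIS1 moved none of these 6 genes past the threshold, with log2(fold change) values of 0.13 (SE 0.18) for SCN9A, 0.09 (SE 0.25) for SCN7A and -0.10 (SE 0.10) for CACNB1. The contrast uses the MEIS1-OE, ctrl-OE, MEIS1-KO and ctrl-KO libraries, so it shares libraries with the comparisons above.

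Directly against MEIS2-OE, MEIS1-OE had higher SCN9A (log2 difference 1.37, SE 0.13, edgeR adjusted p = 1.1e-10), CACNB1 (1.02, SE 0.09, edgeR adjusted p = 7.1e-11) and SCN7A (0.78, SE 0.16, edgeR adjusted p = 9.8e-04). For each of these 3 genes all MEIS1-OE libraries lay above all MEIS2-OE libraries. A further call, CACNA1I (2.03, SE 0.61, edgeR adjusted p = 0.028), rested on 19 reads summed over MEIS1-OE and 4 over MEIS2-OE. CACNA1I, a T-type pore, held 1 to 6 reads per library in MEIS1-OE and 0 to 2 in MEIS2-OE, and 1 to 5 in ctrl-OE. Its adjusted p reached 0.25 without replicate 5 and was 0.14 without replicate 2 and 0.065 without replicate 4. The 4 calls among 33, all higher, compare with 2.7% of all tested genes and 2.03% called higher. CACNG8 (0.43, SE 0.04) and CACNB3 (0.32, SE 0.06) passed the adjusted p alone, for 6 of 33, all higher, beside 7.75% and 4.93% higher. The mean of CACNA1I over 6 libraries was 0.149 ± 0.0766 CPM in MEIS1-OE, 0.0324 ± 0.0398 in MEIS2-OE, 0.109 ± 0.0618 in ctrl-OE, 0.0804 ± 0.0546 in ctrl-KO, 0.00893 ± 0.0219 in MEIS1-KO and 0.0354 ± 0.0284 in MEIS2-KO.

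MEIS2-OE changed no channel gene at an adjusted p under 0.05 by edgeR, beside 0.498% of all tested genes called and 1.35% at the adjusted p alone. CACNA1I passed an unadjusted p under 0.05, as 1 of 33, and DESeq2 called 0. The values of the genes that rose in MEIS1-OE were a log2(fold change) of 0.14 (SE 0.14) for SCN9A, 0.17 (SE 0.18) for SCN7A and -0.06 (SE 0.09) for CACNB1. MEIS1-KO likewise gave 0 calls by edgeR and 0 by DESeq2, beside 0.29% of all tested genes and 1.46% at the adjusted p alone, with 3 of 33 at an unadjusted p under 0.05 (CACNA1I, CACNG4 and SCN8A). In the MEIS2 contrast 0 of 33 passed by edgeR and 0 by DESeq2, beside 0.985%, and 0 at the adjusted p alone, beside 2.57%. There the smallest adjusted p of 0.078 belonged to SCN2A, and 2 of 33 (SCN2A and SCN8A) were under an unadjusted 0.05. MEIS1-KO against MEIS2-KO gave 0 calls by either tool, beside 0.0102%, and 1 of 33 (CACNA1A) under an unadjusted 0.05.

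In MEIS2-KO, 3 sodium channel and CACNG genes passed an adjusted p under 0.05, all within the fold threshold. This is 3 of 33 (1 higher and 2 lower), beside 10% of all tested genes, 4.04% higher and 5.98% lower. The count is near that share, so it is not a result about the channel genes as a set. The calls with the fold threshold were 0, beside 1.58%. SCN8A lay at 54.5 to 63.3 CPM in ctrl-KO (median 58.6) and at 41.9 to 52.5 in MEIS2-KO (median 45.8), without overlap, with a log2(fold change) of -0.34 (SE 0.08, edgeR adjusted p = 0.0044). SCN2A, the pore of the early axon initial segment, lay at 8.28 to 9.74 CPM in ctrl-KO (median 9.16) and at 9.11 to 12.8 in MEIS2-KO (median 11.3), with a log2(fold change) of 0.32 (SE 0.08, edgeR adjusted p = 0.012). In SCN2A 5 of 6 MEIS2-KO libraries exceeded all ctrl-KO libraries. CACNG4 lay at 47.1 to 55.4 CPM in ctrl-KO (median 52.6) and at 40.9 to 48.7 in MEIS2-KO (median 42.5), with a log2(fold change) of -0.28 (SE 0.08, edgeR adjusted p = 0.024).

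MEIS1-KO, set against the same ctrl-KO libraries, had SCN8A at 43.2 to 56.2 CPM (median 51.9, log2(fold change) -0.23, SE 0.08, edgeR adjusted p = 0.17), SCN2A at 9.03 to 11.4 CPM (median 10.1, 0.16, SE 0.09) and CACNG4 at 43.0 to 54.4 CPM (median 43.8, -0.19, SE 0.08). None of the 3 passed there, and the difference between the knockouts did not pass for any of them, at 0.11 (SE 0.08) for SCN8A, -0.15 (SE 0.08) for SCN2A and 0.09 (SE 0.08) for CACNG4. A p that misses the threshold does not show that the knockouts act alike. In MEIS2-OE, SCN8A ranged from 24.3 to 33.0 CPM, SCN2A from 9.39 to 11.8 and CACNG4 from 25.4 to 29.6. In MEIS1-OE and ctrl-OE, SCN2A ranged from 9.57 to 13.2 and from 10.1 to 12.5 CPM.

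**Figure D4:**
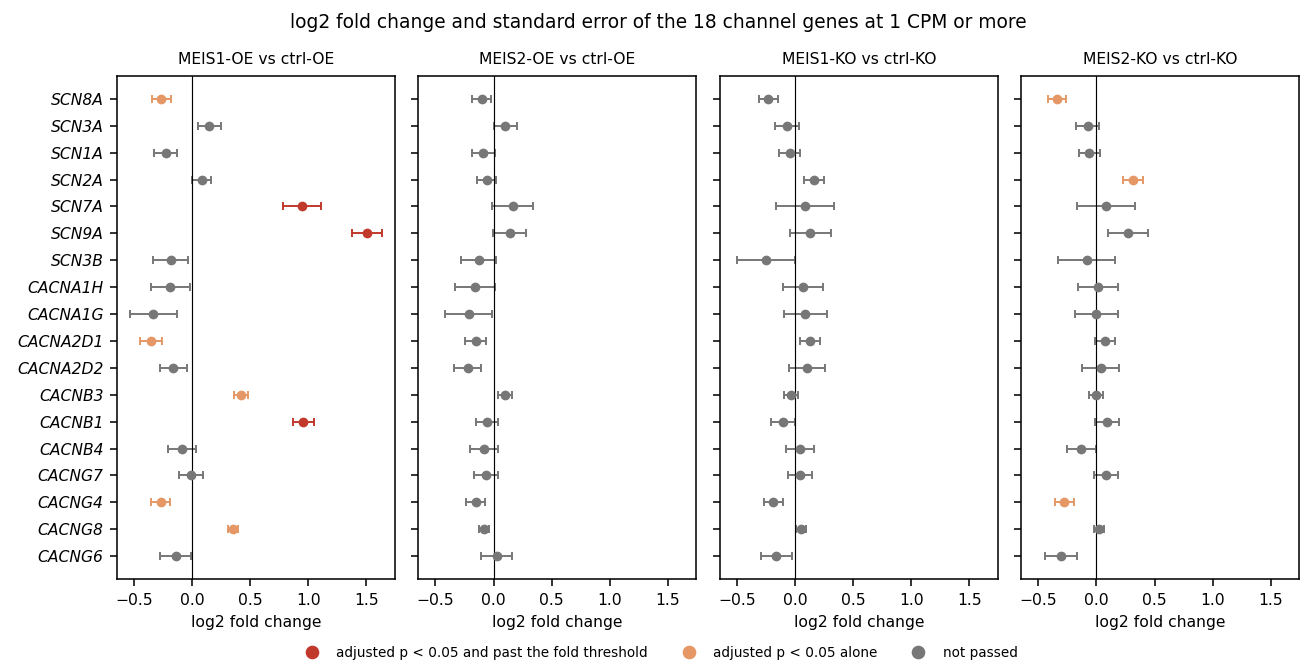
log2(fold change) with SE of the 18 channel genes with a mean of 1 CPM or more, for each MEIS condition against its own control; red marks calls past both thresholds and orange an adjusted p under 0.05 alone. MEIS1-OE holds 3 red and 5 orange genes, MEIS2-KO 3 orange genes, and the other panels none.

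More channel genes differed between the vector systems than between any MEIS condition and its control. Between ctrl-OE and ctrl-KO, which differ in virus, in Cas9 form and in amount of virus, 14 of 33 were called (8 higher and 6 lower in ctrl-OE), beside 22.1% of all tested genes, 13% higher and 9.15% lower. At the adjusted p alone 19 of 33 passed (10 higher and 9 lower), beside 51.4%, 27.5% higher and 23.9% lower. Higher in ctrl-OE were the beta subunit SCN3B (2.24 ± 0.400 CPM against 0.623 ± 0.214, log2(fold change) 1.83, SE 0.19), CACNA2D2 (4.13 ± 0.598 against 1.41 ± 0.182, 1.55, SE 0.13), SCN7A (2.59 ± 0.629 against 1.01 ± 0.269, 1.37, SE 0.21), SCN9A (2.64 ± 0.288 against 1.41 ± 0.306, 0.90, SE 0.16) and CACNB1 (16.5 ± 1.83 against 9.98 ± 1.12, 0.72, SE 0.10). For these 5 genes the 6 libraries of each control did not overlap. The 3 genes that rose in MEIS1-OE over ctrl-OE were thus also higher in ctrl-OE than in ctrl-KO. Both comparisons use the ctrl-OE libraries, as the reference for MEIS1-OE and as the group set against ctrl-KO.

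Lower in ctrl-OE were SCN1A (8.58 ± 0.882 CPM against 17.6 ± 2.14, log2(fold change) -1.03, SE 0.09), SCN8A (31.0 ± 3.29 against 58.8 ± 3.88, -0.93, SE 0.08) and CACNG4 (30.6 ± 5.93 against 52.5 ± 3.002, -0.78, SE 0.08), also without overlap. SCN11A (0.451 ± 0.200 against 1.17 ± 0.204, -1.34, SE 0.29), a pore of pain-sensing neurons, and SCN4B (0.493 ± 0.199 against 1.11 ± 0.315, -1.17, SE 0.25) were lower at levels near 1 CPM. Exonic sequence of SCN11A overlaps the span of WDR48 on the opposite strand, a gene at 104 CPM, so part of the SCN11A reads may not be its own. Other calls rested on few reads. CACNA1A (29 reads over ctrl-KO) and CACNA2D3 (30 in ctrl-KO and 18 in ctrl-OE) were called at log2(fold change) values of 0.89 (SE 0.33) and -0.97 (SE 0.38). CACNA1F had 10 reads over ctrl-OE and 0 over ctrl-KO, which is at least 2.77-fold higher when 3 reads over the group are taken for the 0.

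Within the fold threshold, CACNA2D1 (10.9 ± 1.21 CPM in ctrl-KO, -0.38), CACNG8 (-0.41) and CACNA1G (1.45 ± 0.446 in ctrl-OE and 2.08 ± 0.162 in ctrl-KO, -0.53) were lower in ctrl-OE at an adjusted p under 0.05, and CACNB3 (0.33) and SCN2A (0.29) were higher. The T-type pore CACNA1H did not differ past the threshold in any comparison, with condition means between 17.5 ± 3.55 and 19.9 ± 5.22 CPM, and neither did CACNG7, with condition means between 78.6 ± 9.78 and 95.1 ± 4.55 CPM. CACNA1B did not pass either, with means between 0.517 ± 0.230 CPM in MEIS2-OE and 1.18 ± 0.289 in MEIS1-KO.

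SCN3B, CACNA2D2 and SCN1A had means under all 4 MEIS conditions that lay nearer to the control of the same system than to the other control, whereas CACNG8 in MEIS1-OE lay nearer to ctrl-KO. SCN3B lay at 1.97 ± 0.328 CPM in MEIS1-OE and 2.05 ± 0.182 in MEIS2-OE, and at 0.523 ± 0.207 in MEIS1-KO and 0.601 ± 0.167 in MEIS2-KO. CACNA2D2 lay at 3.67 ± 0.694 and 3.53 ± 0.372 CPM with CRISPR-activation and at 1.51 ± 0.335 and 1.45 ± 0.119 with the knockouts, in the same order. SCN1A lay at 7.34 ± 0.932 and 8.07 ± 1.05 CPM and at 17.0 ± 2.23 and 16.8 ± 1.27. These conditions were not tested across systems, and each adds an altered MEIS gene. For the low genes, the condition means were 0.309 to 1.17 CPM for SCN11A, 0.493 to 1.38 for SCN4B, 0.169 to 0.482 for CACNA1A, 0.134 to 0.326 for CACNA2D3, 0 to 0.0740 for CACNA1F and 1.13 to 2.20 for CACNA1G.

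Markers of cell type moved with the control comparison, with both knockouts and, for fewer genes, with MEIS1-OE and MEIS2-OE. The neural stem cell markers summed to 3008 to 3917 CPM in ctrl-OE and 4359 to 4932 in ctrl-KO. Of them, 6 of 9 were called lower, beside 9.15% of all tested genes, with SOX2 at 114 and 300 CPM. The neuron markers summed to 568 to 748 CPM and 1087 to 1124 CPM, with MAP2 at 265 and 756 CPM, and ELAVL4 at 0 reads in every condition. Among the 9 neuron markers tested 1 was called higher and 3 lower, beside 13% higher and 9.15% lower of all tested genes. The astrocyte markers summed to 105 to 126 and 246 to 270 CPM, mostly GJA1 at 108 and 254 CPM. Of these 6 markers 3 were called lower and 1 higher, beside the same shares. The 1 higher was GFAP, at 0.210 CPM in ctrl-OE and 0.0478 in ctrl-KO. Called higher in ctrl-OE were also 3 of 6 tested muscle markers and 2 of 7 of the oligodendrocyte lineage, with 0 called lower in either list. Mesenchymal and mural markers (6) and pluripotency markers (4) each had 1 called higher and 1 lower. In MEIS2-KO, beside the changes of SCN8A, SCN2A and CACNG4, markers differed from ctrl-KO at an adjusted p under 0.05. The share of all tested genes there was 5.98% lower and 4.04% higher, which applies to each marker list. Of 9 stem cell markers 4 were lower and 1 higher, and their sum was 4937 to 6055 CPM. PAX6 lay at 26.1 ± 3.196 against 37.2 ± 1.42 CPM and VIM at 3065 ± 258 against 2444 ± 105 CPM. Of 9 neuron markers tested, 1 was higher and 2 were lower, with a sum of 932 to 1130 CPM. Of 6 mesenchymal and mural markers 4 were higher, with TAGLN at 346 ± 63.3 against 188 ± 35.5 CPM and a sum of 673 to 944 CPM against 438 to 600 CPM. Further, 2 of 6 tested muscle markers and 1 of 7 markers of the oligodendrocyte lineage were higher, and 0 of 6 astrocyte and 0 of 4 pluripotency markers passed. In MEIS1-KO, 1 of 9 stem cell markers was lower and 1 higher at an adjusted p under 0.05, beside 1.46% of all tested genes. PAX6 lay at 27.9 ± 3.84 CPM against 37.2 ± 1.42 in ctrl-KO. There 1 of 9 neuron markers tested was lower, and 1 of 6 tested muscle markers was higher. Mesenchymal and mural markers were higher in 3 of 6 cases, with TAGLN at 318 ± 88.1 against 188 ± 35.5 CPM. The part of these markers in the channel differences was not tested. In MEIS1-OE 2 of 9 stem cell markers were lower at an adjusted p under 0.05, beside 3.58% of all tested genes, and the sum was 3309 to 4240 CPM. The 2 were HES5 (0.0635 ± 0.0403 against 0.548 ± 0.599 CPM, called, with overlapping groups) and SOX1 (28.9 ± 4.06 against 35.8 ± 8.25 CPM). The neuron sum of 617 to 690 CPM in MEIS1-OE lay inside the range of ctrl-OE, and none of 9 neuron markers tested was called. GAP43 alone of them passed the adjusted p (20.9 ± 3.11 CPM against 15.9 ± 2.26), beside 5.52% higher of all tested genes. Beside the same share, 1 of 6 mesenchymal and mural markers was higher in MEIS1-OE. In MEIS2-OE 1 of 9 stem cell markers was lower at an adjusted p under 0.05, beside 1.35% of all tested genes in either direction. It was again HES5 (0.0737 ± 0.0735 against 0.548 ± 0.599 CPM, called, with overlapping groups).

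**Figure D5:**
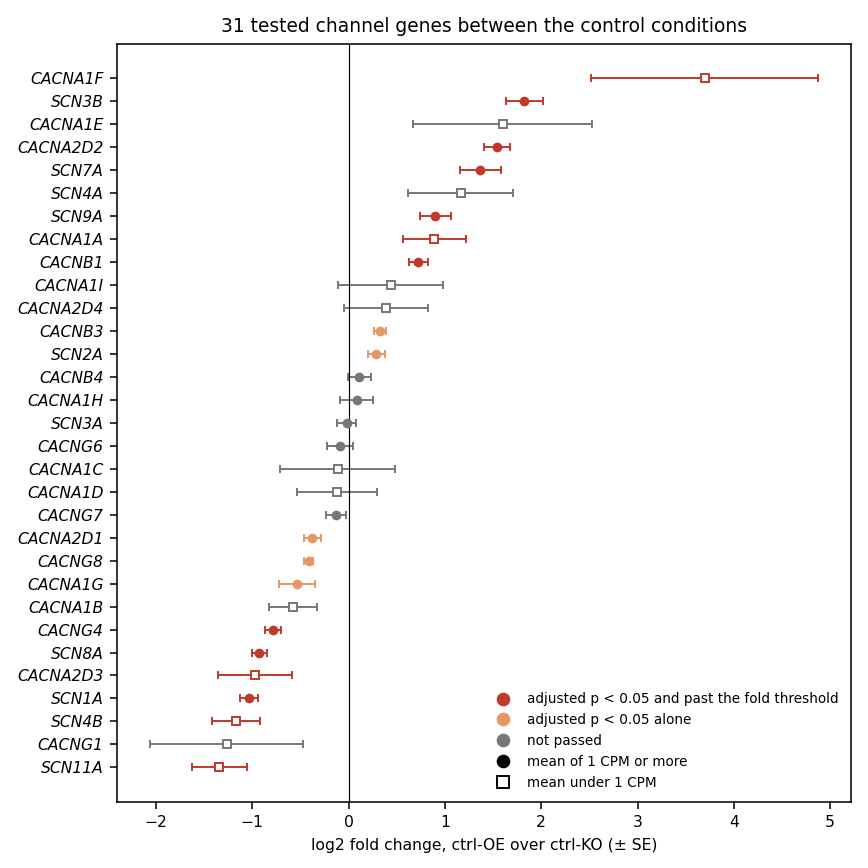
log2(fold change) of ctrl-OE over ctrl-KO with SE for 31 of the 33 tested channel genes; red marks calls past both thresholds, orange an adjusted p under 0.05 alone, and open squares genes with a mean under 1 CPM. SCN3B, CACNA2D2 and SCN7A stand on the right and SCN1A, SCN8A and CACNG4 on the left, and CACNA1F is drawn at a fitted value that depends on the prior count, since it had 0 reads in ctrl-KO.

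Partners of the channels moved in MEIS1-OE in part. Of 14 sodium channel partners tested, 4 were higher and 1 lower at an adjusted p under 0.05, beside 5.52% higher and 3.58% lower of all tested genes. NFASC, which anchors channels at the axon initial segment, went from 0.815 ± 0.148 to 1.45 ± 0.405 CPM (log2(fold change) 0.82, SE 0.18) and the spectrin SPTBN4 from 1.17 ± 0.304 to 1.90 ± 0.3903 (0.70, SE 0.21), both past the fold threshold. FGF11 (29.3 ± 1.45 to 39.9 ± 3.07 CPM) and PRRT2 (55.8 ± 7.27 to 82.8 ± 12.9) rose within it, at 0.45 and 0.57, and ANK3 fell by 0.21 on the log2 scale. The median over the 14 was 0.015. Of 18 calcium channel partners tested, 3 were higher and 2 lower beside the same shares, and the largest of these was STAC2, an adaptor of calcium channels, from 1.88 ± 0.267 to 19.6 ± 3.39 CPM (log2(fold change) 3.37, SE 0.13, edgeR adjusted p = 7.5e-23). RRAD, which inhibits the channels, fell from 0.652 ± 0.288 to 0.277 ± 0.148 CPM (-1.21, SE 0.36), and REM2, SYT1 and AKAP5 moved within the fold threshold, at 0.43, 0.26 and -0.37. The groups overlapped for SPTBN4, ANK3, REM2 and RRAD. At an adjusted p under 0.05, NFASC (0.96), SPTBN4 (1.54), FGF11 (0.88), STAC2 (0.60) and REM2 (0.80) were also higher in ctrl-OE than in ctrl-KO. RRAD (1.71) and AKAP5 (0.92), which fell in MEIS1-OE, were higher there too, and SYT1 (-0.69), which rose, was lower.

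Among 13 pumps and exchangers that extrude sodium and calcium, 2 were higher and 4 lower in MEIS1-OE at an adjusted p under 0.05, beside 5.52% and 3.58% of all tested genes, with the exchanger SLC8A2 called higher (1.53 ± 0.236 to 3.17 ± 0.265 CPM, 1.05, SE 0.18). SLC8A2 was also higher in ctrl-OE than in ctrl-KO (log2(fold change) 1.415). Among 9 leak and pacemaker channel genes, FAM155A was called lower (1.55 ± 0.335 to 0.919 ± 0.184 CPM, -0.75, SE 0.16) and HCN3 rose within the fold threshold (0.32), both with overlapping groups. In the REST complex, which represses channel genes, 1 of 5 passed (RCOR1, -0.17), and among 16 calcium-responsive kinases, phosphatases and transcription factors 1 passed (MEF2A, -0.19), beside 9.1% of all tested genes in either direction. With so few genes, these 2 counts are not results about the lists. In MEIS2-OE, 2 of the 75 tested genes of these 6 lists were higher and 1 lower at an adjusted p under 0.05. The share of all tested genes was 1.35% in either direction. FGF13 was among those higher, at 0.26, and the 1 lower was past the fold threshold. MEIS1-KO moved none of the 75 at an adjusted p under 0.05, beside 1.46% of all tested genes. In MEIS2-KO, 1 of the 75 was higher and 5 were lower at an adjusted p under 0.05, beside 4.04% higher and 5.98% lower of all tested genes. FGF14 was called lower (3.002 ± 0.332 to 1.90 ± 0.407 CPM, -0.66, SE 0.17). CACHD1, SLC8A1, SIN3A, CREB1 and MEF2D passed the adjusted p alone, at -0.20, -0.24, -0.19, -0.18 and 0.23.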

How the data were processed

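Poly-A RNA of 36 hNSC libraries was sequenced as pairs of reads of 100 bases from stranded libraries. As deposited by the authors, the values are raw read counts per gene symbol, counted with HTSeq 0.6.0 after alignment to hg19 (GRCh37), without normalization. The design text names STAR 2.4.2a, and the submitters' processing notes name STAR 2.7.0a and Trimmomatic 0.39. The gene annotation and the strand setting are not given in the sources used here, so genes that overlap on opposite strands may share counts. Totals of 15429985 to 22940493 counts per library set the precision, and intervals and limits of a count of 0 cover counting error only.

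All 6 conditions were fitted together with edgeR 4.0.16 (R 4.3.3), after TMM scaling of genes with at least 10 counts in all. Quasi-likelihood F tests were two-sided, p-values were adjusted by Benjamini-Hochberg over 19689 genes, and calls had to reach an adjusted p below 0.05 with a log2(fold change) beyond 0.58 in either direction. SEs were derived from each log2(fold change) and its F statistic (value over root F), and the prior count was 0.125. CPM used TMM library sizes. Lengths and positions came from GENCODE on GRCh37 and promoters from RefSeq. The procedure was tested on simulated data.

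Values by condition, or their range over conditions, are given for channel genes with an adjusted p under 0.05 in any of 9 comparisons and for the highest per kb of each class, and full statistics for those also past the fold threshold against a control, in a contrast or between the MEIS genes. The genes and lists were chosen with earlier results of these data known. Libraries of the same replicate number deviated together weakly (mean correlation 0.0361 over 90 pairs, 16 above 0.1), beside -0.00732 for pairs of other numbers. For 16 of 36 libraries the mean correlation was highest with their own number. The number was used only as an alternative block. The closest libraries of a condition differed by more than sampling noise (chi-square per degree of freedom 2.74). Alternatives were RLE size factors, other filters, a prior count of 2, the block, only the conditions compared, DESeq2 1.42.0, each replicate number left out and no fold threshold. A few genes count in the totals but are not reported here by name or drawn.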

Additional observations from a re-analysis of the deposited data

Results flagged for a closer look

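Of 138 groups of 6 libraries (23 channel genes in 6 conditions), 7 held a library far from the other 5, and chance alone gives about 1 in 20 groups. MEIS1-KO replicate 6 was the highest of its condition for both T-type pores with ample reads, at 32.8 CPM of CACNA1H, where the next library had 19.4, and at 3.64 CPM of CACNA1G, where the next had 2.26. CACNG4 in MEIS2-KO reached 48.7 CPM in replicate 6, above 43.7 in the next. SCN8A in MEIS1-OE reached 32.1 CPM in replicate 3, above 26.6 in the next. SCN9A in MEIS2-KO fell to 1.21 CPM in replicate 4, below 1.70. The other 2 rested on few reads: CACNA1I in MEIS1-KO at 0.0536 CPM in replicate 4 (1 read, the others at 0) and CACNA2D3 in MEIS2-OE at 0.0447 CPM in replicate 5 (1 read, the next library 0.186 CPM).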

How the results depend on the processing

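The number of channel genes called kept within 1.5 times of the reported number in most alternatives. Without the fold threshold it was 8 in place of 3 for MEIS1-OE against ctrl-OE, 5 in place of 2 for the MEIS1 contrast and 3 in place of 0 for MEIS2-KO against ctrl-KO. With only the conditions compared in the fit it was 1 for MEIS2-KO, SCN11A, a gene near 1 CPM (cause not tested). Leaving out a replicate number gave 12 to 16 calls between the controls, 2 to 3 in the MEIS1 contrast, 3 to 4 between MEIS1-OE and MEIS2-OE, and 3 in every case for MEIS1-OE against ctrl-OE. The log2(fold change) in MEIS1-OE ran from 1.42 to 1.57 for SCN9A, 0.88 to 1.05 for CACNB1 and 0.73 to 1.07 for SCN7A over these 6 omissions, and the 3 genes were called in each of the 13 alternatives. CACNA1I lost its call against MEIS2-OE with only the conditions compared (adjusted p = 0.078), with DESeq2 (adjusted p = 0.11) and in 3 omissions, and filterByExpr, which kept 23 of the 33 genes, removed it. With a prior count of 2 its log2 difference fell to 0.93. No direction turned. The replicate block left the calls at 3 for MEIS1-OE, 2 for the MEIS1 contrast, 4 between MEIS1-OE and MEIS2-OE and 14 between the controls. Counts under about 10 per library limit CACNA1A, CACNA1F, CACNA1I and CACNA2D3, among others.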
